A study of Mus musculus with 24 samples.

Results

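Maternal immune activation (MIA) is an immune challenge given to a pregnant dam, and its offspring are studied for lasting changes in brain and immunity. The comparison described here asks how microglia of adult MIA offspring differ from those of control offspring after a second challenge, in the frontal cortex. It covers 6 of the 24 libraries of the series: 3 from control offspring and 3 from MIA offspring, chosen by their labels of region, group and treatment, and it is described across all genes. The other libraries of the series are from saline-injected mice and from the striatum.

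All 6 libraries came from male mice of 8 to 10 weeks that received lipopolysaccharide (LPS), a component of the outer membrane of Gram-negative bacteria, by intraperitoneal injection at 4500 endotoxin units per gram, with microglia taken 18 h later. The groups differ only in the label control or MIA. The agent given to the dams, the gestational day and the mouse strain are not given in the sources used here, nor is the litter or animal behind each library. A difference between MIA and control libraries therefore cannot be told apart from a difference between litters. The p-values rest on a spread between libraries that was pooled over 23 libraries of all 8 groups of the series. That spread may be in part technical. Cells were released with papain and enriched with magnetic beads against CD11b, a surface integrin that microglia share with border macrophages, monocytes and neutrophils. The libraries are called control 1 to 3 and MIA 1 to 3 after the replicate numbers in their labels.

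Microglia are the resident macrophages of the brain. LPS given in the periphery reaches them partly through cytokines made elsewhere in the body and the brain barriers, and the response has an arm that runs through NF-kB to cytokines such as tumour necrosis factor and interleukin-1 beta, and an arm that runs through type I interferon. Interferon binds the receptor subunits IFNAR1 and IFNAR2, the kinases JAK1 and TYK2 act on the receptor, and a factor that contains STAT2 and IRF9 then binds interferon-stimulated response elements in the promoters of antiviral effector genes.

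Before the comparison, the libraries themselves were described. The total count per library lay between 20116819 and 29480499, the highest in MIA 3. The 10 defining microglial markers were present in every library, with summed levels of 27200 to 38000 CPM (counts scaled to library size with TMM factors) in the control libraries and 28300 to 33500 CPM in the MIA libraries. MIA 3 stood apart from MIA 1 and MIA 2. Across all genes, its log2 CPM correlated less with MIA 1 (Pearson's r = 0.929) and MIA 2 (r = 0.936) than with the controls (r = 0.950, 0.947 and 0.938), and 3034 genes (17.7%) lay over 2-fold from the median of the 6 libraries against 1592 to 2129 genes in the other 5. Genes are not independent replicates, so these values describe the libraries.

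Markers of other brain cells also set MIA 3 apart. The 22 neuronal markers tested summed to 1200 CPM in MIA 3, against 103 and 84.9 CPM in MIA 1 and MIA 2 and 144 to 278 CPM in the controls, and 20 of the 22 were higher in MIA 3 than in any control, as were 24% of all genes. Camk2a, a kinase of excitatory neurons, stood at 86.4, 123 and 57.5 CPM in controls 1 to 3, at 38.7 and 32.2 CPM in MIA 1 and MIA 2, and at 587 CPM in MIA 3. Endothelial and pericyte markers were above every control in MIA 3 for 19 of 23 genes (summed 2260 CPM, controls 937 to 1850, MIA 1 and MIA 2 at 1110 and 1160). Astrocyte markers were above every control for 9 of 16 (summed 1310 CPM, controls 496 to 1310, MIA 1 and MIA 2 at 454 and 568). No neuronal marker was at 0 in MIA 3, and 1 and 2 of them were at 0 in MIA 1 and MIA 2.

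The 10 genes highest in MIA 3 relative to MIA 1 and MIA 2, among genes with at least 10 CPM on the higher side, included Atp2b2, Clstn3, Hrh3, Mapk8ip2, Scn2a, Slc17a7, Snap91, Syt13 and Tmem151b, most of them genes of neurons and synapses. At the other end stood the stress-hormone target Fkbp5 (165 and 150 CPM in MIA 1 and MIA 2, 23.8 CPM in MIA 3, controls 55.3 to 117), the transcription factors Klf2 and Klf4 and the cytokine gene Csf3. Klf4 was at 131, 112 and 10.5 CPM in MIA 1 to 3. The part of these differences in the results below was not tested. Named genes are mostly given library by library, and several results that rest on MIA 3 are given without it as well. The plot of list medians shows both values for each gene list. MIA 3 is singled out because its values stand apart, those of interferon effectors included. Differences without it compare the 5 remaining libraries, with the spread still pooled over all groups of the series. Their p-values are not independent support.

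Across 17139 genes tested, no gene differed between MIA and control at an adjusted p under 0.05 by edgeR's quasi-likelihood test with Benjamini-Hochberg adjustment. At an unadjusted p under 0.05 there were 837 genes (4.88%), 476 lower (2.78%) and 361 higher (2.11%) in MIA. Fitted on the 6 cortex LPS libraries alone, edgeR gave 389 of 14101 genes (2.76%) at that threshold and called 0. DESeq2 called 58 genes (0.338%), 49 of them lower (0.286%), and limma's voom with sample quality weights called 171 (0.998%), of which 159 were lower (0.928%). Those weights counted MIA 3 least of all libraries (weight 0.314), so the voom counts are not separate from leaving out MIA 3. The median log2 fold change over all genes was -0.01. In 882 genes (5.15%) every MIA library was below every control library, and in 464 (2.71%) every MIA library was above. The plot of genes called by setting sets these counts side by side. Leaving out MIA 3 gave the highest count among the 6 libraries left out in turn, with 89 genes called.

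**Figure D1:**
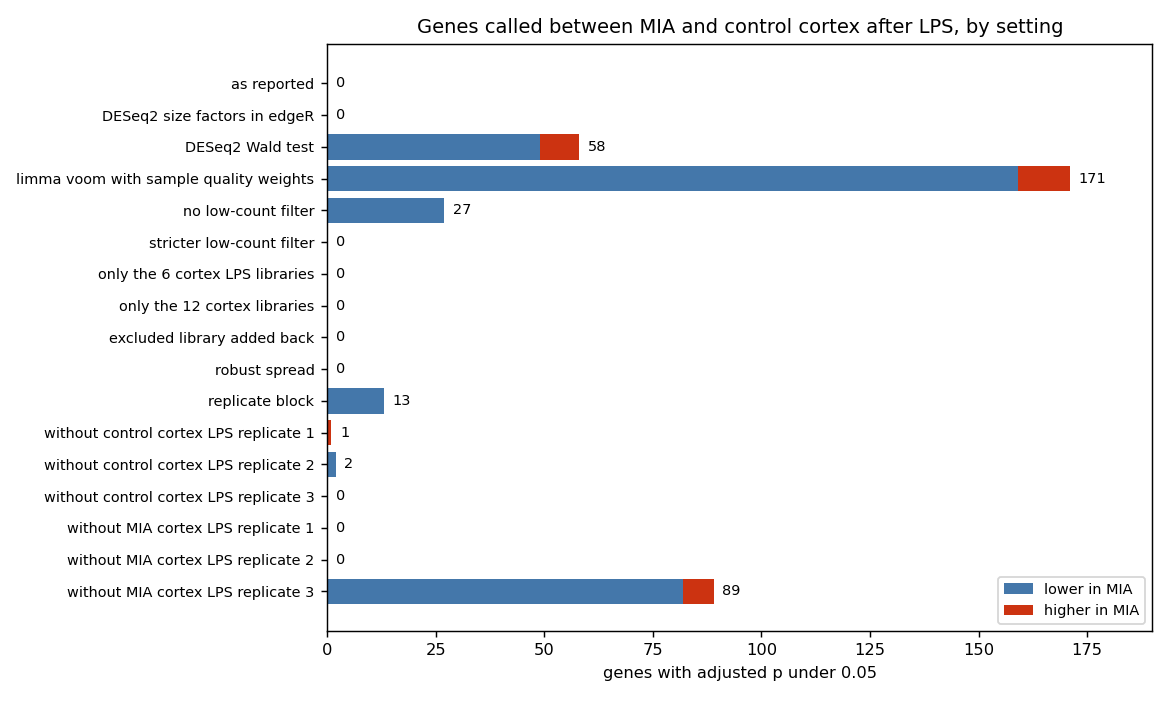
Bars give the number of genes with an adjusted p under 0.05 between MIA and control cortex after LPS under each setting, with genes lower in MIA in blue and higher in red. The fit as reported calls 0 genes, DESeq2 calls 58, quality weights 171, and the fit without MIA replicate 3 calls 89, of which 82 were lower.

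The genes nearest to the threshold are given next, named after their values were seen as those with the smallest p among genes averaging at least 10 CPM. All 15 were lower in every MIA library than in every control library. Slamf8, a receptor of myeloid cells that restrains their oxidative burst and migration, stood at 81.3, 45.5 and 62.8 CPM in controls 1 to 3 and at 23.5, 18.1 and 30.6 CPM in MIA 1 to 3. MIA 3 was the highest of the MIA libraries and still below the lowest control. The log2 fold change was -1.39 ± 0.23 (SE, n = 3 against 3, adjusted p = 0.0559 by edgeR), and the MIA level was near that of the saline libraries (19.1 to 33.1 CPM).

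Trex1, the exonuclease that clears cytosolic DNA and so limits interferon induction through cGAS, read 320, 349 and 401 CPM in the controls and 141, 137 and 240 CPM in MIA 1 to 3. The groups did not overlap, and the log2 fold change was -1.05 ± 0.18 (edgeR adjusted p = 0.0559). Ccl12, a chemokine that draws monocytes through CCR2, read 1410, 1410 and 1170 CPM in the controls and 346, 333 and 823 CPM in MIA 1 to 3. Again MIA 3 lay between the other MIA libraries and the controls (log2 fold change -1.41 ± 0.27, edgeR adjusted p = 0.0598). In saline cortex Ccl12 lay between 43 and 62.5 CPM, so every LPS library of both groups was above every saline library.

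Genes of phagocyte killing and inhibition were also among the 15, and in these MIA 3 did not stand apart. Cybb, the catalytic subunit of the phagocyte NADPH oxidase, was at 277, 174 and 192 CPM in the controls and 90.1, 96.7 and 102 CPM in the MIA libraries (log2 fold change -1.16 ± 0.22, edgeR adjusted p = 0.0598). Pilra, an inhibitory receptor, was at 282, 181 and 174 CPM against 113, 104 and 103 CPM. In both genes the MIA libraries lay close together and below the lowest control. The 18 markers of neutrophils, which the CD11b beads also bind, summed to 1390, 1690 and 1330 CPM in the controls and 971, 1300 and 977 CPM in the MIA libraries, with 0 or 1 of them at 0 in each library. Their median log2 fold change was -0.53, and -0.35 without MIA 3, with 17 of the 18 below 0. None of the 18 had an unadjusted p under 0.05 and 2 did not overlap (11.1%, background 5.15%). MIA 3 was below every control in 14 of them (27.7% of all genes were). In saline cortex their median log2 fold change was 1.16, higher in MIA. The part of these markers in the differences in myeloid genes was not tested.

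The high-affinity IgG receptor gene Fcgr1 was at 857, 1020 and 912 CPM in the controls and 502, 499 and 644 CPM in the MIA libraries (log2 fold change -0.76 ± 0.14, edgeR adjusted p = 0.0559). Slfn2, a member of the interferon effector list that restrains the proliferation of immune cells, had a log2 fold change of -0.97 ± 0.18, and Psme2, a subunit of the proteasome activator PA28, one of -0.78 ± 0.15, both with an edgeR adjusted p of 0.0559. Also among the 15 were AW112010, Ccdc86, Tlr1, Naa25, Phf11d and Psmb9. A230005M16Rik, with the same edgeR adjusted p (0.0559), had no read in any control and at most 0.365 CPM in a MIA library.

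**Figure D2:**
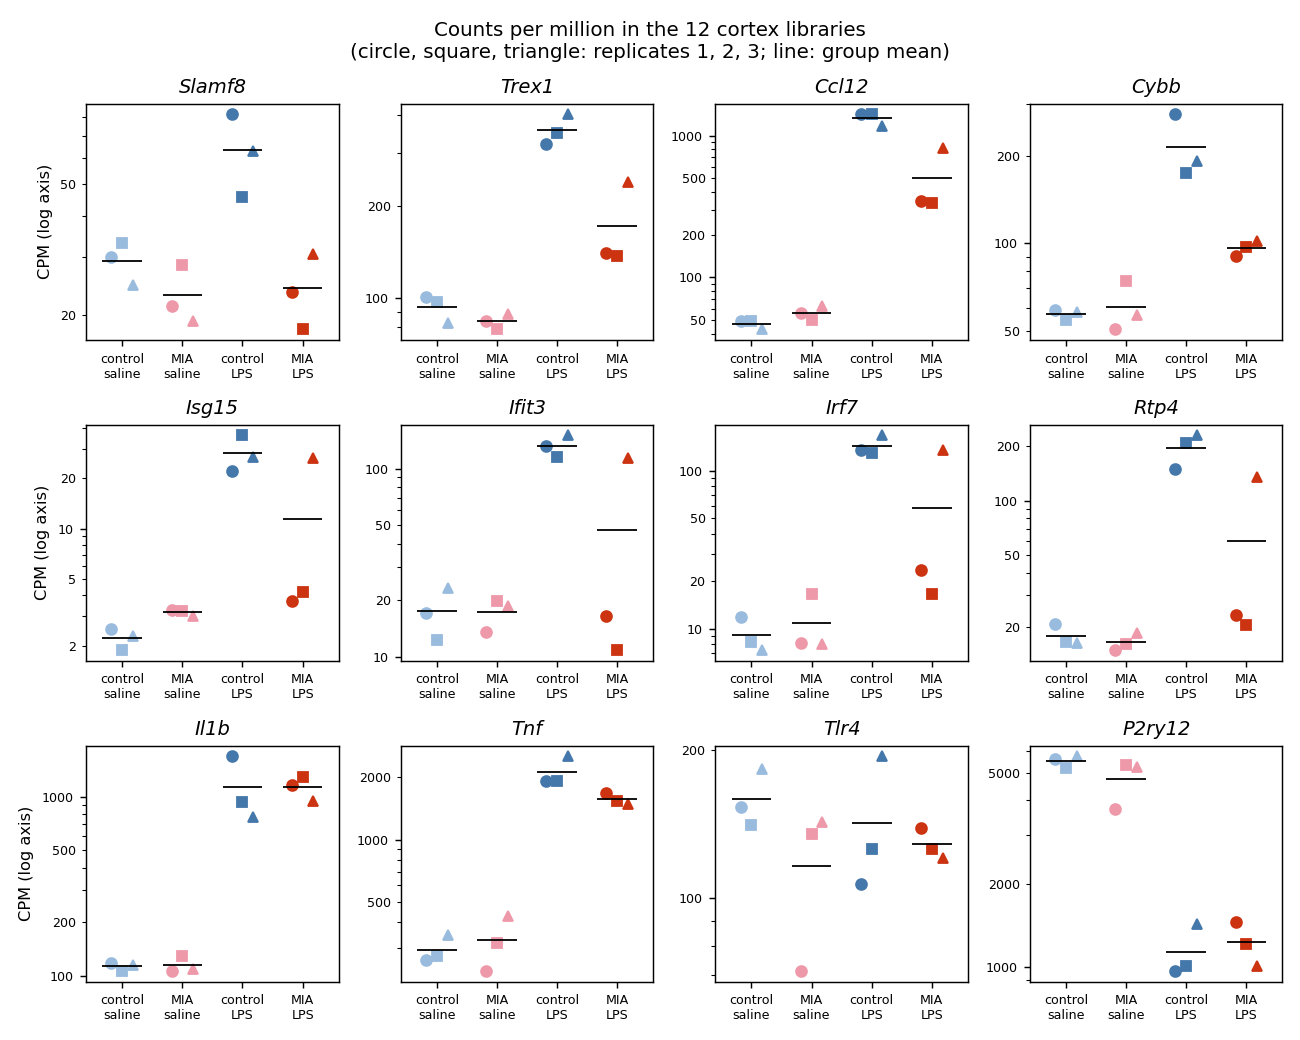
Each panel plots the CPM of 1 gene (log axis) in the 12 cortex libraries, with circles, squares and triangles for replicates 1, 2 and 3 and a line for the group mean. In the top row every MIA LPS library is below every control LPS library, in the middle row MIA replicate 3 (Isg15 26.5 CPM, Irf7 135 CPM) is far above MIA replicates 1 and 2, and in the bottom row the groups overlap or nearly so.

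The interferon effectors, the antiviral and related genes downstream of type I interferon, were lower in MIA 1 and MIA 2 than in the controls nearly throughout. Of 64 genes listed, 61 were tested. Their median log2 fold change was -1.06, against -0.01 over all genes, and 58 of the 61 were below 0. At an unadjusted p under 0.05, 44 were lower in MIA (background 2.78%) and 1, Ifi27, was higher. None had an adjusted p under 0.05 by edgeR, while DESeq2 called 14 and voom with quality weights 44, all of them lower. Over all genes 0.286% and 0.928% were called lower by these methods. In 32 of the 61 every MIA library was below every control (background 5.15%), and in 55 both MIA 1 and MIA 2 were (background 11.8%). Of those 55, MIA 3 was inside the control range in 22 and above it in 1. Over all 61, MIA 3 was inside the control range in 26, below it in 33 and above it in 2, against 48.3%, 27.7% and 24% of all genes.

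Isg15, a ubiquitin-like protein that is conjugated to other proteins, showed the split plainly. It was at 22.2, 36.2 and 26.9 CPM in controls 1 to 3, at 3.72 and 4.16 CPM in MIA 1 and MIA 2, and at 26.5 CPM in MIA 3. MIA 3 lay within the control range, and MIA 1 and MIA 2 lay near the saline libraries of both groups (1.88 to 3.28 CPM). The log2 fold change was -1.30 ± 0.49 with all 3 MIA libraries (edgeR adjusted p = 0.89) and -2.84 without MIA 3 (adjusted p = 4e-05).

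Ifit3, which binds foreign RNA together with its relatives, was at 132, 115 and 150 CPM in the controls, at 16.6 and 10.9 CPM in MIA 1 and MIA 2, and at 114 CPM in MIA 3. MIA 3 was just below the lowest control, and MIA 1 and MIA 2 overlapped the saline libraries (12.3 to 23.3 CPM). The log2 fold change moved from -1.48 ± 0.54 (edgeR adjusted p = 0.821) to -3.26 without MIA 3 (adjusted p = 1.4e-05). Rtp4, a chaperone of receptors with antiviral activity, behaved alike: 149, 209 and 229 CPM in the controls, 23.3 and 20.5 CPM in MIA 1 and MIA 2, and 135 CPM in MIA 3. Its log2 fold change was -1.71 ± 0.46 (edgeR adjusted p = 0.354), and -3.15 without MIA 3 (adjusted p = 1.5e-06).

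Rsad2, which encodes the antiviral enzyme viperin, was at 43.8, 40.0 and 37.5 CPM in the controls and 6.43, 3.35 and 26.3 CPM in MIA 1 to 3. Oasl2, of the oligoadenylate synthetase family of RNA sensors, was at 169, 180 and 299 CPM against 33.9, 27.8 and 135 CPM. Zbp1, a sensor of left-handed nucleic acids, was at 67.8, 70.0 and 82.2 CPM against 9.86, 9.33 and 63.1 CPM. In these 3 genes MIA 3 was below the lowest control by much less than MIA 1 and MIA 2 were. Ifitm3, which blocks viral entry, was at 508, 617 and 646 CPM against 123, 141 and 449 CPM, the same order.

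Some effectors departed from this pattern. Ifitm1 (22.7, 30.0 and 19.6 CPM in the controls, 22, 37.3 and 21.1 CPM in the MIA libraries) and Ifitm2 overlapped between groups. The plot of the effectors by MIA library shows 60 of the 61 genes.

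**Figure D3:**
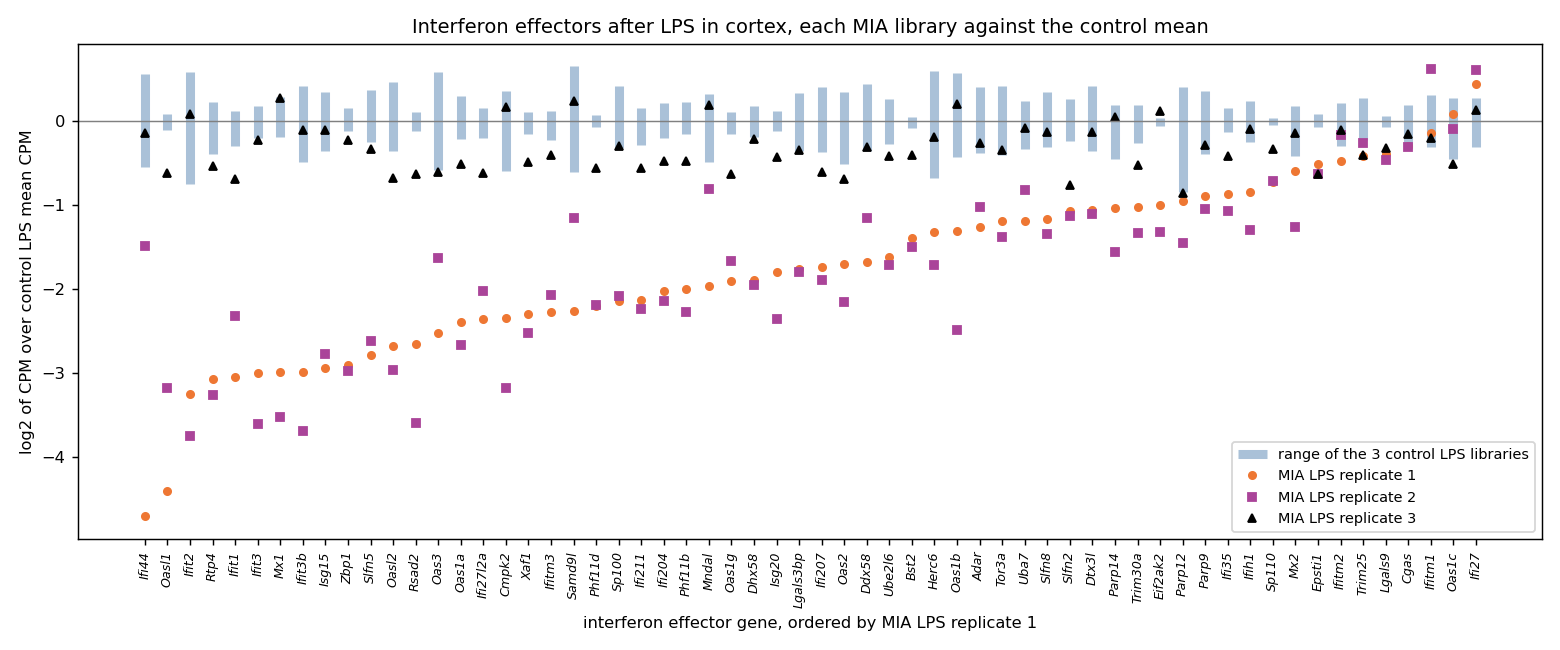
The y axis is the log2 ratio of CPM to the mean of the 3 control LPS libraries, for 60 of the 61 interferon effectors tested, with blue bars for the range of the controls and symbols for the MIA LPS libraries. MIA replicates 1 and 2 lie below the control range for 55 genes, and replicate 3 is inside the range for 26 genes and below it for 33.

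Set against the saline libraries of the same group, the median effector lay above the saline level in all 6 LPS libraries, to different degrees. It was above its own saline mean by 2.27, 2.07 and 2.42 on the log2 scale in controls 1 to 3, by 0.49 and 0.38 in MIA 1 and MIA 2, and by 2.21 in MIA 3. On this measure MIA 3 was within the control values, and MIA 1 and MIA 2 were below all of them. By level alone MIA 3 was below every control too. The effectors summed to 7370, 7210 and 9510 CPM in controls 1 to 3. Their sums in MIA 1 to 3 were 2990, 2880 and 6230 CPM. Counted otherwise, 58, 57 and 59 of the 61 effectors were above all 6 cortex saline libraries in controls 1 to 3, against 36 and 31 in MIA 1 and MIA 2 and 57 in MIA 3. Over all genes that share lay between 23.7% and 28.1% in the same 6 libraries. Below all 6 saline libraries were 1, 2 and 2 effectors in controls 1 to 3, 8 and 5 in MIA 1 and MIA 2, and 1 in MIA 3.

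The promoters of the effectors were searched for the core of an interferon-stimulated response element, the letters GAAA, any 2 bases and GAAA again, on both strands, in 300 base windows from 250 bases before to 50 bases after each RefSeq transcript start (build GRCm38.p6). A match is a description of letters and not a bound site. Of 47 effectors with a window, 23 (48.9%) held a match, against 3.96% of 12008 tested genes with a window. Among the 82 genes called lower without MIA 3, 67 had a window and 31 (46.3%) held a match. The share was similar where MIA 3 was below every control (47.7% of 44 genes) and where MIA 3 was inside the control range (43.5% of 23 genes), a difference that was not tested. A kappa-B type motif (GGGA, any base, TTTCC) was found in 0 of the 47 effectors and in 4 of 16 cytokine genes with a window (25%), against 0.566% of all genes, and a gamma-activated type motif (TTC, any 3 bases, GAA) in 17% of the effectors against 8.3%.

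The 250 bases before the start are shown for 3 effectors that differ in the number and strand of matches and for Slamf8, the gene with the smallest p, 5′ to 3′ on the gene's strand with matches to the response element core in capitals (on the opposite strand it reads TTTC, any 2 bases, TTTC). Isg15 (chr4:156200819-156201068, minus strand) has 3 overlapping matches in 1 run, and Ifit3 (chr19:34583279-34583528, plus strand) has 2 separate matches on the opposite strand. Rsad2 (chr12:26456453-26456702, minus strand) and Slamf8 (chr1:172590569-172590818, minus strand) have 1 match each, on the opposite strand.
Isg15: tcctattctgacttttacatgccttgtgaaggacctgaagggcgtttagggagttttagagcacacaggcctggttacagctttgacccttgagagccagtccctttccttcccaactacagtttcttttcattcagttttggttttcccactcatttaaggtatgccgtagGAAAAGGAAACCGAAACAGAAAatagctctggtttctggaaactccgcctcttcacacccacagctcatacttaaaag
Ifit3: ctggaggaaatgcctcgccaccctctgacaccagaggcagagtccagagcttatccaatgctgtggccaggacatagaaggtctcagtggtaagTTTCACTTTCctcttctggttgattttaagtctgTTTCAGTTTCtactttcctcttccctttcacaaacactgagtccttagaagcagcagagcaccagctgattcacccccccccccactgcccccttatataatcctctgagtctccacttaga
Rsad2: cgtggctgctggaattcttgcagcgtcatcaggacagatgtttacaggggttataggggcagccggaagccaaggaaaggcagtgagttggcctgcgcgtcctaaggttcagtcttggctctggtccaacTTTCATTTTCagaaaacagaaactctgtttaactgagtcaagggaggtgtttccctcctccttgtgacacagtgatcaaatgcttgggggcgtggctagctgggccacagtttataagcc
Slamf8: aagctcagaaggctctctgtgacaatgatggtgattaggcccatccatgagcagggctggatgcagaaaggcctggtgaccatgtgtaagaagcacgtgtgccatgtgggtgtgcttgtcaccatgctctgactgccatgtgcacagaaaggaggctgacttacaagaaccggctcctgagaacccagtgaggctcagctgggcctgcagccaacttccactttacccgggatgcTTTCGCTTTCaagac

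The nearest match begins 66 bases before the start in Isg15, 122 in Ifit3, 120 in Rsad2 and 15 in Slamf8. These 4 genes had log2 fold changes without MIA 3 of -2.84, -3.26, -3.03 and -1.59. Ccl12, Trex1 and Irf7 hold no match in their windows, although each was called lower without MIA 3.

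Upstream of the effectors, the list of interferon receptors and signalling genes as a whole did not share their shift (median log2 fold change -0.11 over 17 genes, all tested). Of the ligands, only Ifnb1 of 12 passed the filter on low counts, at 0.68 CPM or less in each library, and its log2 fold change of -0.20 had an SE of 1.29, too wide to show a direction. The receptor subunit gene Ifnar1 was at 101, 50.7 and 104 CPM in the controls and 109, 97.0 and 71.4 CPM in the MIA libraries, and Ifnar2 at 161, 173 and 162 CPM against 157, 166 and 142 CPM. Both overlapped between groups, and the 95% interval of the log2 fold change was -0.43 to 0.67 for Ifnar1 and -0.36 to 0.16 for Ifnar2. The kinase genes Jak1 and Tyk2 overlapped between groups as well.

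Within this list 4 of the 17 genes were lower at an unadjusted p under 0.05 (background 2.78%) and 3 were without overlap (17.6%, background 5.15%). Irf9 was at 132, 150 and 186 CPM in the controls and 88.1, 73.5 and 121 CPM in MIA 1 to 3, with no overlap (log2 fold change -0.73 ± 0.16, edgeR adjusted p = 0.207). Usp18, the protease that removes ISG15 and restrains the receptor, was at 111, 100 and 160 CPM against 16.6, 12.4 and 99.4 CPM. Stat2 had a log2 fold change of -0.72 ± 0.38 and overlapping groups.

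Among the 8 interferon regulatory factors, the transcription factors that drive interferon and effector genes, Irf7 was the only one with an unadjusted p under 0.05. It was at 136, 129 and 168 CPM in the controls, 23.5 and 16.7 CPM in MIA 1 and MIA 2, and 135 CPM in MIA 3 (log2 fold change -1.30 ± 0.53, edgeR adjusted p = 0.938; without MIA 3 -2.83, adjusted p = 0.00068). MIA 3 was within the control range and MIA 1 and MIA 2 far below it. The constitutive factor Irf3 (50.6, 50.8 and 58.0 CPM against 49.2, 49.5 and 45.6 CPM) and the myeloid factor Irf8 (436, 421 and 411 CPM against 399, 365 and 449 CPM) differed by far less, with log2 fold changes of -0.14 ± 0.10 and -0.06 ± 0.13 (edgeR adjusted p = 1 for both). Irf3 was the 1 factor of the 8 in which every MIA library was below every control, by a small margin.

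Genes that respond to interferon gamma as well as type I interferon were lower to a smaller degree. The guanylate-binding proteins and immunity-related GTPases, which attack the vacuoles of intracellular pathogens, had a median log2 fold change of -0.89 over 16 tested genes, all 16 below 0, and -1.56 without MIA 3. In 3 of them (18.8%, background 5.15%) no library overlapped, and 5 were lower at an unadjusted p under 0.05 (background 2.78%). Irgm1 was at 153, 161 and 294 CPM in the controls and 65.9, 52.1 and 119 CPM in the MIA libraries, below every control in all 3 (-1.36 ± 0.31, edgeR adjusted p = 0.207). Gbp2 was at 149, 81.2 and 222 CPM against 34.8, 35.7 and 113 CPM, with MIA 3 inside the control range. Gbp7 (311, 223 and 392 CPM against 268, 261 and 311 CPM) overlapped fully.

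The MHC class I and peptide loading list covers antigen presentation to CD8 T cells and natural killer cells. It summed to 11000, 10500 and 11700 CPM in MIA 1 to 3, below every control (12300 to 17300 CPM). The median log2 fold change of the list was -0.60 over 23 genes with all MIA libraries and -0.75 without MIA 3. MIA 3 was inside the control range in 10 of the 23 and below it in 13, against 48.3% and 27.7% of all genes. In 13 of the 23 the groups did not overlap (56.5%, background 5.15%), and 16 had an unadjusted p under 0.05, all lower (background 2.78%). B2m, the light chain of class I molecules, was at 4100, 4670 and 4820 CPM in the controls and 3260, 2750 and 3490 CPM in the MIA libraries (-0.52 ± 0.14, edgeR adjusted p = 0.396). The heavy chain gene H2-K1 was at 1300, 830 and 1190 CPM against 681, 599 and 741 CPM, and the immunoproteasome subunit gene Psmb9 at 75.6, 63.3 and 79.2 CPM against 37.4, 35.8 and 53.3 CPM. None of these 3 genes overlapped. Heavy chain genes share near-identical stretches, so reads of H2-K1, H2-D1 and the H2-T and H2-Q genes could be divided among them by the estimation. The general endoplasmic chaperones on the list, Calr and Canx, overlapped between groups.

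The cytokine list did not share the shift of the effectors, with a median log2 fold change of -0.21 over 23 genes and 0.01 without MIA 3. Il1b was at 1680, 933 and 770 CPM in the controls and 1160, 1290 and 949 CPM in the MIA libraries, all inside the control range (0.01 ± 0.22, 95% interval -0.46 to 0.47). In saline it lay between 106 and 129 CPM, so every LPS library of both groups was above every saline library. Tnf was at 1910, 1920 and 2530 CPM against 1680, 1540 and 1480 CPM, lower in every MIA library but with an interval that includes 0 (-0.43 ± 0.25, 95% interval -0.97 to 0.10).

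Il6 (14.7, 8.69 and 11.6 CPM against 13.1, 12 and 5.2 CPM) and Il10 (13.5, 1.69 and 4.37 CPM against 6.29, 6.64 and 3.77 CPM) overlapped between groups. Of the 23 cytokine genes, 3 were without overlap (13%, background 5.15%), Tnf and Il12b among them. At an unadjusted p under 0.05, 3 were lower (background 2.78%) and 0 higher. Il12b, the shared subunit of interleukin-12 and interleukin-23, was at 48.6, 10.6 and 8.17 CPM in the controls and 5.32, 2.99 and 4.83 CPM in the MIA libraries. Its groups did not overlap, control 1 stood far above the other controls, and the log2 fold change was -2.35 ± 0.73 (edgeR adjusted p = 0.581).

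Chemokines were divided. Their median log2 fold change was -0.29 over 21 genes, and in 4 (19%, background 5.15%) no library overlapped: Ccl12, Ccl2, Ccl4 and Cxcl16. At an unadjusted p under 0.05, 5 were lower (background 2.78%). Ccl2, the main ligand of CCR2, was at 365, 346 and 394 CPM in the controls and 148, 160 and 224 CPM in the MIA libraries (-1.06 ± 0.27, edgeR adjusted p = 0.305). Cxcl10, an interferon-induced ligand of CXCR3, was at 254, 112 and 98.7 CPM against 39.0, 37.1 and 110 CPM, with MIA 3 inside the control range. Ccl5 split the MIA libraries most clearly: 117, 71.2 and 78.7 CPM in the controls, 36.0 and 36.5 CPM in MIA 1 and MIA 2, and 174 CPM in MIA 3, above every control. Ccl3 and Cxcl2 overlapped between groups.

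Genes that sense LPS were mostly alike in the groups. The receptor gene Tlr4 was at 107, 126 and 194 CPM in the controls and 139, 126 and 121 CPM in the MIA libraries (-0.15 ± 0.25, 95% interval -0.67 to 0.38), and its co-receptor gene Cd14 at 2890, 2060 and 3440 CPM against 2620, 2780 and 2060 CPM (-0.17 ± 0.23). Both overlapped. Tlr1 and Tlr2, whose products pair to bind bacterial lipopeptides, did not. Tlr1 was at 148, 132 and 135 CPM against 81.1, 82.9 and 96.1 CPM (-0.67 ± 0.14, edgeR adjusted p = 0.128), and Tlr2 at 1300, 835 and 1150 CPM against 803, 768 and 571 CPM (-0.62 ± 0.16, adjusted p = 0.291). The NF-kB list had a median of -0.19 over 22 genes, and -0.08 without MIA 3. The NF-kB inhibitor gene Nfkbia was at 4100, 3050 and 2910 CPM against 2810, 2550 and 1520 CPM, lowest in MIA 3.

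**Figure D4:**
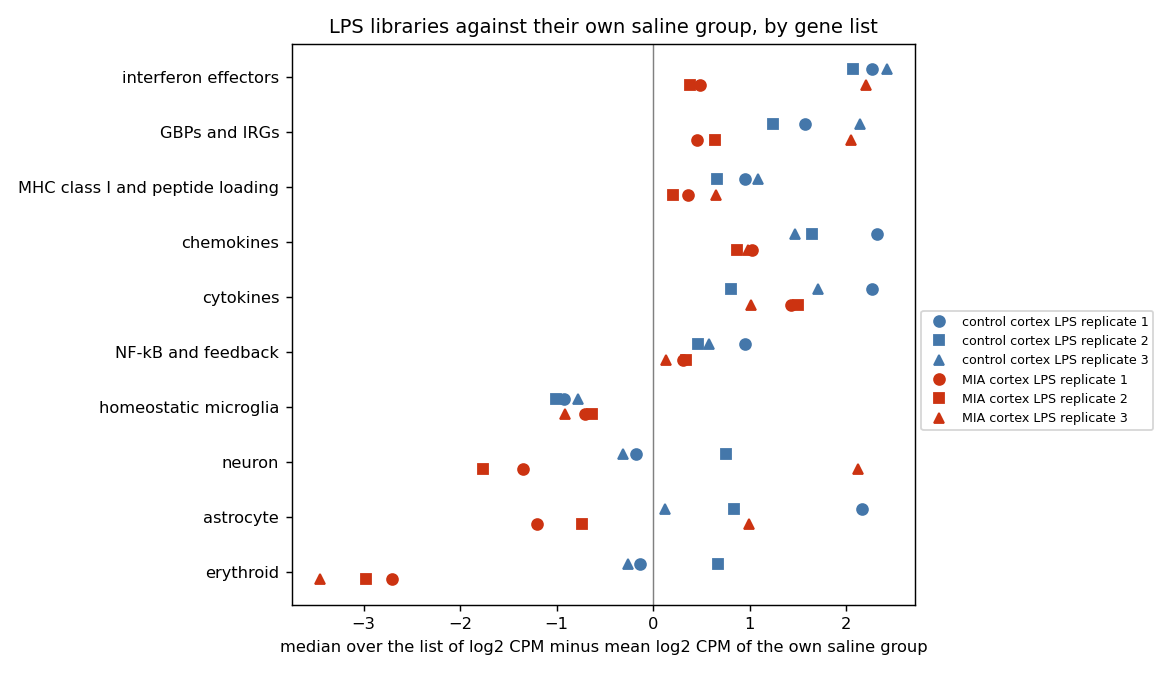
Points give, for each LPS library, the median over a gene list of log2 CPM minus the mean log2 CPM of that library's own saline group, with control libraries in blue and MIA libraries in red. For the interferon effectors MIA replicates 1 and 2 (0.49 and 0.38) lie apart from the controls (2.07 to 2.42) and MIA replicate 3 (2.21) lies among them, while homeostatic genes lie below 0 in all 6 libraries.

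Microglial identity genes did not separate the groups. The 28 homeostatic genes, which are known to fall after LPS, had a median log2 fold change of -0.01, and 1 of them, P2ry6, was without overlap (3.57%, background 5.15%). P2ry12, the purine receptor that guides microglial processes, was at 968, 1010 and 1430 CPM in the controls and 1460, 1210 and 1010 CPM in the MIA libraries (0.11 ± 0.17, 95% interval -0.25 to 0.47), and between 3710 and 5760 CPM in saline. Tmem119 was at 2780, 2460 and 3750 CPM against 2900, 2950 and 2240 CPM (95% interval -0.60 to 0.29), and the fractalkine receptor gene Cx3cr1 at 6600, 5470 and 5610 CPM against 5160, 5550 and 5520 CPM (95% interval -0.42 to 0.17). All 3 overlapped between groups.

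Of the 24 disease-associated microglial genes (median -0.21), 22 were below 0. At an unadjusted p under 0.05, 7 were lower (background 2.78%), and 6 were without overlap (25%, background 5.15%). Spp1, which encodes osteopontin, was at 368, 280 and 374 CPM in the controls and 154, 157 and 276 CPM in the MIA libraries (-0.80 ± 0.31, edgeR adjusted p = 0.89). Axl, a phagocytic receptor tyrosine kinase, was at 52.2, 49.1 and 47.9 CPM against 17.0, 23.6 and 51.8 CPM, so that MIA 3 alone was at the control level. Fcgr4, an IgG receptor gene, is not on this list but on that of phagocytic and pattern receptors. It was at 427, 383 and 533 CPM against 315, 333 and 272 CPM, without overlap (-0.54 ± 0.17, edgeR adjusted p = 0.551). Levels per library cannot tell fewer cells of a type from less RNA per cell.

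The list of ATF4 and the amino acid response had a median log2 fold change of -0.53 over 19 genes. Of these, 8 were lower at an unadjusted p under 0.05 (background 2.78%) and 5 were without overlap (26.3%, background 5.15%), and none was called by edgeR. Shmt2, of mitochondrial serine metabolism, was at 132, 140 and 119 CPM in the controls and 68.6, 79.5 and 95.4 CPM in the MIA libraries (-0.68 ± 0.17, edgeR adjusted p = 0.27). Asns, asparagine synthetase, was at 21.7, 33.0 and 18.9 CPM against 7.25, 9.83 and 16.9 CPM (-1.11 ± 0.33, adjusted p = 0.486). The groups did not overlap in either gene. Atf4 itself and its target Ddit3 overlapped, and the chaperones of the unfolded protein response had a median of 0.02 over 20 genes. Lists of the nuclear respiratory chain, glycolysis, cholesterol synthesis and proliferation had medians between -0.08 and -0.02. Every MIA library was below every control in 6 of 42 respiratory chain genes (14.3%, background 5.15%) and 4 of 22 proliferation genes (18.2%). In glycolysis and cholesterol synthesis that count was 0. No respiratory chain or proliferation gene had an unadjusted p under 0.05.

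**Figure D5:**
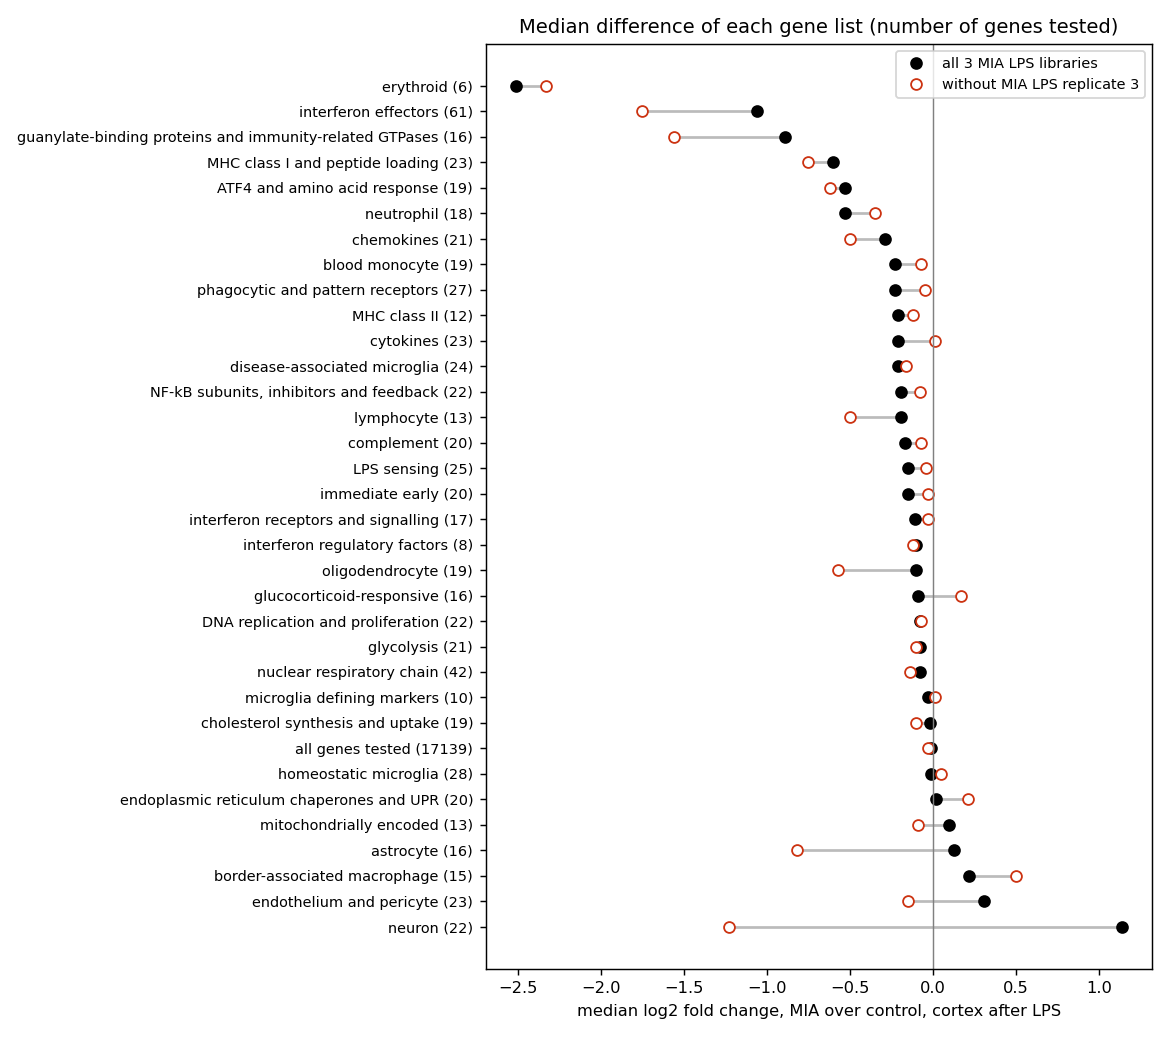
Filled points give the median log2 fold change of MIA over control cortex after LPS for each gene list, with the number of genes tested in brackets, and open points the same without MIA replicate 3. The interferon effectors move from -1.06 to -1.75 and the neuronal markers from 1.14 to -1.23, while the median of all genes stays at -0.01 and -0.03.

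Without MIA 3, edgeR called 89 of 17001 genes (0.523%), 82 lower (0.482%) and 7 higher (0.0412%) in MIA. Of the 82, 49 were on an interferon or MHC class I list, 36 of them interferon effectors. MIA 3 was below every control in 52 of the 82 (27.7% of all genes), inside the control range in 30 (48.3% of all genes) and above it in none. The 82 genes were chosen against the same control libraries, so this is a description and no separate evidence. On none of the gene lists stood Sdc3, a syndecan (187, 233 and 219 CPM in the controls, 48.2, 56.1 and 160 CPM in MIA 1 to 3), Aldh18a1, the first enzyme of proline synthesis (113, 114 and 113 CPM against 51.2, 49.8 and 97.9 CPM), and Nampt of NAD synthesis (134, 132 and 147 CPM against 83.4, 75.5 and 108 CPM). In these 3 genes all MIA libraries were below all controls and MIA 3 was the closest to them.

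The 7 genes called higher without MIA 3 included Atp8a2, Xylb, Igf1r, Pim2, A230005M16Rik and Hmcn1. Igf1r, the receptor of insulin-like growth factor 1, was at 12.7, 17.5 and 15.3 CPM in the controls and 43.7, 31.2 and 20.7 CPM in MIA 1 to 3, above every control in each (1.07 ± 0.28 with all libraries, edgeR adjusted p = 0.305). Pim2, a survival kinase, was at 20.4, 10.6 and 21.4 CPM against 46.9, 46.3 and 18.1 CPM, with MIA 3 inside the control range. Hmcn1 and A230005M16Rik had no read in any control library. MIA 3 was above every control in 3 of the 7, and in Xylb it was below every control, opposite to the call.

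Whether LPS acted differently in MIA and control cortex was tested as the interaction of group and treatment. This contrast compares the 12 cortex libraries within the fit over all 23 libraries. No gene was called by edgeR (744 at an unadjusted p under 0.05, 4.34%), DESeq2 called 1, and 35 (0.206%) were called without MIA 3, of which 34 (0.2%) had a smaller response in MIA. Of the 61 effectors, 23 were among those 34, and the median interaction over the effectors with all libraries was -0.96, against -0.02 over all genes. In saline, MIA and control cortex were close in the median over the effectors. The median effector had a log2 fold change of -0.07, with 0 of 17139 genes called by edgeR (921 at an unadjusted p under 0.05). For Isg15 the saline libraries lay at 2.51, 1.88 and 2.29 CPM in control and 3.28, 3.20 and 3.00 CPM in MIA. Every MIA saline library was above every control one, opposite in direction to its log2 fold change after LPS. The 18 neutrophil markers had a median interaction of -1.73, with 7 lower at an unadjusted p under 0.05 by edgeR (455 of 17139 genes).

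The striatum gives the same contrast in other libraries, 3 control and 2 MIA after the library that the submitters marked as excluded was left out. Both regions were taken from each brain, and the labels do not say which libraries share an animal. In the striatum edgeR called 25 genes (0.146%), 18 lower (0.105%) and 7 higher (0.0408%), and the median effector stood at -1.35. With the excluded library added back, 1 gene was called there, and without the cortex library MIA 3, which enters the estimate of spread that all groups share, 99 were. Without control striatum LPS replicate 3 the count was 90, of which 52 were higher and 38 lower, so that the main direction turned, and without either MIA striatum library it was 1. DESeq2 called 228 genes in the striatum and voom with quality weights 95. Values in cortex and striatum were -1.05 and -1.35 for Trex1, -1.41 and -2.04 for Ccl12, -1.71 and -3.36 for Rtp4 and -0.73 and -1.12 for Irf9. These genes were all among the 18 called lower in striatum, so a shared direction was likely from the choice. The 7 genes higher in striatum ran in cortex from -0.21 for Chst8 (striatum 1.44) to 0.69 for Tmem44 (striatum 1.18). None of the 7 was among the genes called in cortex without MIA 3. Of the 18 genes lower in striatum, 16 (88.9%) were among the 82 called lower in cortex without MIA 3, which is 19.5% of the 82. The difference between the regions was tested directly, and edgeR called no gene (460 at an unadjusted p under 0.05, 2.68%, and 1 called by DESeq2).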

How the data were processed

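RNA from CD11b-enriched cells was made into oligo-dT primed full-length libraries, per the labels' protocols. The authors deposited 1 table of expected counts per gene (unit: estimated counts, 20.3% of the values above 0 not whole), and RSEM, STAR and DESeq2 are named in the submitters' processing notes. The genome build and tool versions are not given in the sources used here. Estimation divides reads among near-identical genes, so values of such genes are uncertain.

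Expected counts were rounded to whole numbers and fitted with edgeR 4.0.16 in R 4.3.3 (quasi-likelihood F test, two-sided, TMM scaling, filterByExpr with a minimum count of 10 and a minimum total of 15) over 23 libraries of 8 groups. The MIA striatum LPS library 3, which the submitters marked as excluded, was left out. Of 55487 identifiers 17139 were tested, with 15 residual degrees of freedom. A gene was called at a Benjamini-Hochberg adjusted p under 0.05 within its comparison. DESeq2 1.42.0 and limma 3.58.1 served as alternatives. With 1 MIA or control library left out, the spread was pooled over all groups.

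The comparison and the 34 gene lists were chosen with earlier results of these data known. The naming rule took called genes and called list members, a set of genes of interest, and the 10 genes highest and lowest in MIA 3 against MIA 1 and MIA 2. No gene was called, so genes named outside the last 2 groups were chosen after their values were seen. Total counts of 20116819 to 29480499 per library limit precision mainly for genes under about 1 CPM. Promoter sequences are from RefSeq on GRCm38.p6 and were matched by symbol, with 12008 tested genes matched. Some genes that these rules name are not reported here.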

Additional observations from a re-analysis of the deposited data

How the results depend on the processing

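The count of 0 genes called between MIA and control became 58 with DESeq2, 171 with voom quality weights and 27 with no low-count filter, and it was 0 with DESeq2 size factors, a stricter filter, the 6 or 12 libraries alone, the excluded library added back or a robust spread. Leaving out 1 library gave 0 to 89 calls, with 89 without MIA 3, 2 without control 2 (Slamf8 and AW112010) and 1 without control 1 (Col6a3). The 0 called effectors became 14, 44 and 12 under the first 3 settings. Over all genes 0.286%, 0.928% and 0.0963% were called lower there. With 1 library left out the effectors called were 0 to 36, against at most 0.482% of all genes called lower. The 89 genes shared 83 with the voom calls and 33 with the DESeq2 calls. The voom weights were lowest for MIA 3 (0.314), so the 83 shared genes are not independent support. The interaction with LPS went from 0 to 1, 19 and 2 calls under those 3 settings and to 0 to 35 with 1 library left out, the cortex against striatum difference from 0 to 1 with DESeq2. Same-numbered cortex LPS libraries did not deviate alike (correlations -0.09, -0.08 and -0.16, against -0.06 to 0.15 for other pairs). Whether the numbers mark a shared animal or batch is not known from this. A replicate block gave 13 calls (0.0759% of all genes), 3 of them effectors. Signs turned in genes near 0. With voom these were Il1b (-0.05) and Tlr4 (0.05). With 1 library left out the log2 fold change ran from -1.28 to 0.24 for Ccl5 (0.24 without MIA 1 or MIA 2), -0.35 to 0.01 for Cd14, -0.15 to 0.29 for Ifnar1, -0.58 to 0.32 for Ifnb1, -0.68 to 0.88 for Il10, -0.20 to 0.41 for Il1b, -0.45 to 0.12 for Il6, -0.14 to 0.01 for Irf8, -0.04 to 0.31 for P2ry12, -0.32 to 0.14 for Tlr4 and -0.28 to 0.04 for Tmem119. The cause of these changes was not tested.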

Other observations

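The 6 erythroid genes tested of 8 listed summed to 207, 356 and 203 CPM in the controls and 51.8, 36.8 and 44.7 CPM in MIA 1 to 3, and 5 of the 6 did not overlap (83.3%, background 5.15%). In saline the sums varied far more within MIA (998, 78.8 and 559 CPM) than within control (156, 279 and 277 CPM). Hba-a2, an alpha globin gene with a near-identical copy that makes its own level uncertain, was at 65.8, 116 and 66.9 CPM in the controls and 16.3, 8.92 and 10.9 CPM in MIA 1 to 3 (log2 fold change -2.78 ± 0.70, edgeR adjusted p = 0.287, DESeq2 adjusted p = 0.0302).

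Stress-hormone and early-response genes separated MIA 3 in the opposite direction to the neuronal markers. Of 16 glucocorticoid-responsive genes 11 were below every control in MIA 3 (27.7% of all genes were), and the list summed to 4250 CPM there against 8550 and 7840 CPM in MIA 1 and MIA 2 and 7150 to 9480 CPM in the controls. Of 20 immediate early genes, which dissociation and handling are known to induce, 13 were below every control in MIA 3 (summed 11000 CPM, against 17700 and 17100 CPM in MIA 1 and MIA 2 and 16200 to 20800 CPM in the controls). Markers of border-associated macrophages summed to 1990, 2330 and 1210 CPM in MIA 1 to 3 and 1190 to 1850 CPM in the controls. The phagocytic and pattern receptors had a median log2 fold change of -0.23 over 27 genes, and -0.05 without MIA 3. Of the 27, 5 were lower at an unadjusted p under 0.05 (background 2.78%) and 6 were without overlap (22.2%, background 5.15%). In MIA 3, 20 were below every control. All 12 MHC class II genes were below 0 (median -0.21), with none at an unadjusted p under 0.05 and none without overlap. Of 13 lymphocyte markers (median -0.19) 3 were without overlap (23.1%), of 19 blood monocyte markers (median -0.23) 2 were (10.5%), and of 20 complement genes (median -0.17) 1 was (5%). Without MIA 3 these medians were -0.50, -0.07 and -0.07. The median was -0.10 for oligodendrocyte markers and 0.10 for mitochondrially encoded genes, and -0.57 and -0.09 without MIA 3.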
